A study of Mus musculus with 4 samples.

Results

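The genes described here are 9 protein-coding genes of the FoxO, LKB1 and mTOR network, which were taken by name from a list drawn up with earlier results of these data known. They are 9 of 21887 mouse protein-coding genes on chromosomes 1 to 19, X and Y. The data are Flag chromatin immunoprecipitation with sequencing (ChIP-seq) of lineage-negative bone marrow cells, meaning marrow depleted of cells with mature surface markers, from C57BL/6 mice aged 8 weeks. All the mice carry a transgene that expresses Nynrin fused to a triple Flag tag (3xFlag-Nynrin-Tg), and the promoter driving it is not stated in the sources used here. There are 2 Flag ChIP libraries (replicates 1 and 2), each with a list of peaks, and 2 input libraries that were not analysed here. All 4 libraries share the transgene, so no untagged cells stand beside these peaks. The labels do not say whether different mice gave the replicates, so their agreement may be technical.

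The list held Foxo1, Foxo3, Stk11, Prkaa1, Tsc1, Tsc2, Mtor, Rptor and Rheb. Blood stem cells stay quiescent, and this network is one of the systems that couple quiescence to nutrients and energy. FoxO transcription factors switch on genes for cell cycle arrest and antioxidant defence, and are held in the cytoplasm when growth factors activate Akt. LKB1, the kinase encoded by Stk11, activates AMPK under energy stress. AMPK and the TSC complex restrain mTORC1, the growth-promoting kinase complex that the small GTPase Rheb turns on. Loss of FoxO, LKB1 or TSC1 in mouse marrow is known to disturb the stem cell pool.

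Flag-Nynrin peaks lay over the starts of nearly all these genes. Of the 9, 7 had a peak summit within 1000 bp of a gene end in both replicates, and these are termed called genes (Stk11, Prkaa1, Tsc1, Tsc2, Mtor, Rptor and Rheb). Across all protein-coding genes 31.9% were called. In replicate 1 alone 8 of the 9 had such a summit, against 32.6% of all genes, and in replicate 2 alone 8 had one, against 45.5%. The FoxO genes were the exceptions, Foxo1 with a summit at its start in replicate 2 only and Foxo3 in replicate 1 only. Counting starts alone, by the strand that RefSeq gives, left the same 7 called, against 31.9% of the 17492 genes with a strand. When a peak in each replicate was required to cover the same gene end, whatever its summit, Foxo3 joined them and 8 of the 9 passed, against 26.2% of all genes. Only Foxo1 then remained outside. The 9 genes were counted without a test, since earlier results were known when they were listed.

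**Figure D1:**
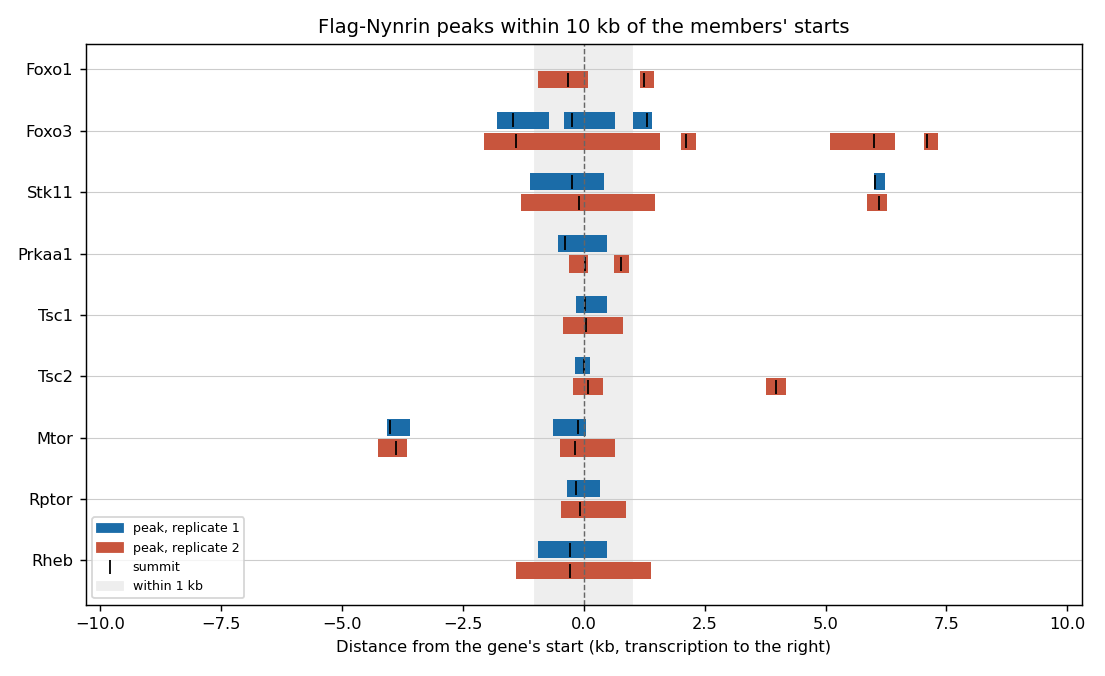
Peaks within 10 kb of the start of each gene, with transcription to the right. Blue bars are replicate 1 peaks, red bars replicate 2 peaks, black ticks summits, and the grey band 1 kb on each side. A bar crosses the start of 8 genes in replicate 1 and 9 in replicate 2.

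Replicate 1 held 12702 peaks and replicate 2 held 25787, with median widths of 523 and 620 bp. Within the 9 genes and 10 kb on either side, 18 peaks were found in replicate 1 and 29 in replicate 2. Overlap with a peak of the other replicate was found for 15 of the 18 and 13 of the 29. Of the 47 peaks, 19 had a summit within 1000 bp of a gene end, 17 of them at the start. Another 19 lay farther inside a gene, and 9 lay farther outside. Neither the overlaps nor these positions were counted over all peaks of the lists, so no background stands beside them. The lists differ in size, and a single wide replicate 2 peak at Foxo3 overlapped several of the replicate 1 peaks. The summits nearest to the 1000 bp limit lay 803 bp (inside it) and 1238 bp (outside it) from an end. At the 10 kb limit the nearest lay 9049 bp from Tsc1 and, beyond it, 10157 bp from Stk11. Fold enrichment below is the authors' linear ratio of the signal at the summit over the background of the peak caller, and −log10 q is its adjusted significance. Both are used only within a list, where a percentile of 100 marks the highest fold enrichment. Read counts behind the peaks are unknown. Marker genes gave no check of the cell label, since a peak is no measure of expression. None of 7 stem and progenitor markers and none of 6 mature-lineage markers was called in both replicates, against 31.9% of all protein-coding genes. In replicate 2 alone 4 of the 7 and 1 of the 6 had a summit at an end, against 45.5% of all genes. These numbers are small, and the marker classes were not tested against each other.

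Stk11, which encodes the master kinase LKB1, carried the strongest peak over a start in the group. The gene spans chromosome 10 from 80115767 to 80130679 (mm10). Its replicate 1 peak, from 80114656 to 80116185, had a fold enrichment of 6.23, a −log10 q of 19.7 and a percentile of 92.3. In replicate 2 the peak ran from 80114465 to 80117237, with a fold enrichment of 16.2, a −log10 q of 52.0 and a percentile of 99.9. Both summits lay just upstream of the start, at 236 and 96 bp. A second, weaker pair of overlapping peaks lay inside the gene, 6032 and 6103 bp from the start, with fold enrichments of 3.22 and 4.37. Stk11 therefore ranked 364 of 5578 genes called at their start, by the lower of its percentiles in the 2 lists. The promoter window of Stk11, from RefSeq in GRCm38.p6 (the assembly behind mm10), is shown because it lay wholly under both peaks. It covers chr10:80115545-80115844 on the plus strand and holds 250 bases before and 50 after a transcript start 28 bp inside the gene bound. Capitals mark motif matches, among them a run where an SP, a forkhead (FoxO-type) and a YY1 match each overlap the next by 1 base.
Stk11: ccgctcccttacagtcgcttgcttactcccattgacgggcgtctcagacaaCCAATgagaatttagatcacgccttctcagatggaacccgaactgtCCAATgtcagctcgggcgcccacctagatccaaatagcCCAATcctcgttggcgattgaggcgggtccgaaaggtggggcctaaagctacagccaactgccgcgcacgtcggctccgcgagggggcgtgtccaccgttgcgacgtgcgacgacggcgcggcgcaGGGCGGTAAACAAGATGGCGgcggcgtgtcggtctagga

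Prkaa1, which encodes the catalytic alpha 1 subunit of AMPK, the kinase that LKB1 activates, was called on weaker peaks. It spans chromosome 15 from 5143861 to 5181899. In replicate 1 the peak over its start had a fold enrichment of 5.11, a −log10 q of 6.22 and a percentile of 79.3. In replicate 2 it had a fold enrichment of 3.72, a −log10 q of 3.39 and a percentile of 23.5, below the median of that list. The summits lay 387 bp upstream and 29 bp downstream of the start, 416 bp apart. Replicate 2 held a further small peak 769 bp inside the gene, with a fold enrichment of 3.19. Beyond the 3′ end, a peak in each replicate lay inside the neighbour Ttc33, at 6046 bp (replicate 1) and 3852 bp (replicate 2) from Prkaa1, and these did not overlap. The replicate 2 one lay 261 bp from an end of Ttc33.

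Both subunits of the TSC complex, which switches Rheb off, were called genes. Tsc1, the stabilizing subunit hamartin, spans chromosome 2 from 28640993 to 28691172. Its start peak had a fold enrichment of 4.58, a −log10 q of 10.4 and a percentile of 67.4 in replicate 1, against 10.9, 28.3 and 96.7 in replicate 2. The summits fell 23 and 53 bp inside the gene, 30 bp apart. Past the 3′ end of Tsc1, at 7544 bp in replicate 1 and 9049 bp in replicate 2, lay weak peaks that did not overlap (fold enrichments 3.62 and 4.25), near the ends of the neighbours Ak8 and Spaca9. Tsc2, the subunit tuberin with the GTPase-activating domain, spans chromosome 17 from 24595816 to 24632676 on the minus strand. Its start peaks were 295 bp wide (width percentile 13.5) in replicate 1 and 626 bp (50.5) in replicate 2. Their fold enrichments were 4.28 and 4.50, at percentiles of 58.4 and 44.7. Replicate 2 alone had another Tsc2 peak, 3982 bp inside the gene, with a fold enrichment of 4.52. At the start the signal cannot be given to 1 gene. The start of Nthl1, a DNA glycosylase gene of base excision repair on the opposite strand, lies 4 bp from that of Tsc2, and the summits lay 8 and 89 bp from the start of Tsc2 and 12 and 93 bp from that of Nthl1. The window chr17:24632578-24632877, given on the minus strand, is shown because it spans this shared start. The transcript start of the window lies 49 bp inside the gene bound of Tsc2, from which the distances above were taken. Capitals mark a pair of ETS matches in opposite orientation, on either side of that transcript start. Both lie inside Tsc2, on the same side of the start shared with Nthl1.
Tsc2: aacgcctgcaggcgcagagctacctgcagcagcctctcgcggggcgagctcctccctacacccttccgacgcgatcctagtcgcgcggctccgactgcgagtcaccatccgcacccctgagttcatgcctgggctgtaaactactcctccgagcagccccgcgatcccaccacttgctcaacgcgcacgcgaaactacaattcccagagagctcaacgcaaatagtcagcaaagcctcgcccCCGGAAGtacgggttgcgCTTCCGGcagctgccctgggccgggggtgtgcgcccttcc

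Rheb, the GTPase that activates mTORC1, stood next to Stk11 in strength. It spans chromosome 5 from 24802823 to 24842361 on the minus strand and has no annotated neighbour within 10 kb. Its start peak had a fold enrichment of 5.85, a −log10 q of 15.9 and a percentile of 88.8 in replicate 1, against 12.5, 35.0 and 98.8 in replicate 2. The summits lay 284 and 292 bp upstream, 8 bp apart, the closest of any start in the group. The peaks were wide, 1417 and 2800 bp, at percentiles of 95.3 and 99.0 of the widths in each list. A weak pair of overlapping peaks lay 14862 and 15270 bp inside the gene, with fold enrichments of 3.98 and 3.99. Replicate 2 alone had a further peak 28309 bp inside, with a −log10 q of 1.44 where the lowest in that list was 1.30. The promoter window, chr5:24842312-24842611 on the minus strand, is printed because it had the highest CpG ratio of the 9. Capitals mark an E-box and an SP match.
Rheb: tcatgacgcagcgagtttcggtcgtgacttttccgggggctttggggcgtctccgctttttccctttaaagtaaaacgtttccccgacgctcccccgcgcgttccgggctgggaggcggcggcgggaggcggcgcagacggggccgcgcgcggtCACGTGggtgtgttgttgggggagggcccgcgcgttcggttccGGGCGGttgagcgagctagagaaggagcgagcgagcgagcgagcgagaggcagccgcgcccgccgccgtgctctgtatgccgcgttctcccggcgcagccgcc

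**Figure D2:**
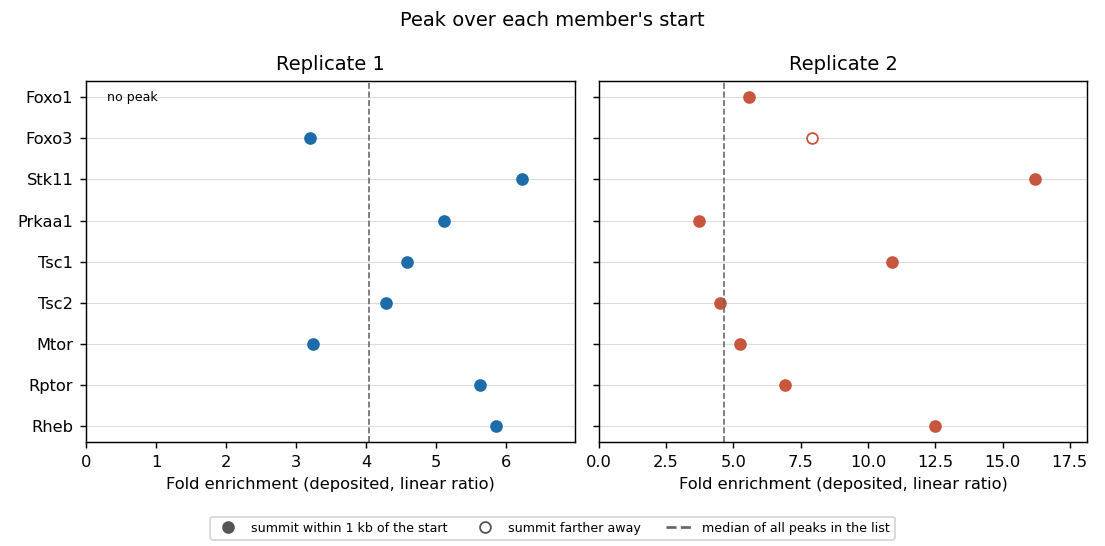
Deposited fold enrichment (linear ratio, starting at 0) of the peak over each gene's start, for replicate 1 on the left and replicate 2 on the right. The dashed line is the median of all peaks in the list. In replicate 1, 6 of 8 points lie above it, and in replicate 2, 7 of 9.

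The kinase gene Mtor and its partner Rptor, whose product raptor brings substrates to mTORC1, were both called. Mtor spans chromosome 4 from 148448582 to 148557685. Over its start the replicate 1 peak was weak, with a fold enrichment of 3.23, a −log10 q of 3.45 and a percentile of 16.9. In replicate 2 these were 5.24, 9.05 and 60.5, and the summits lay 113 and 190 bp upstream. The stronger replicate 1 peak within 1000 bp of an end of Mtor was at the other end, 746 bp past it, with a fold enrichment of 4.62. That peak coincided with the start of the neighbour Exosc10, an RNA exosome subunit gene, which lay 12 bp from the summit. Its replicate 2 counterpart, with a fold enrichment of 5.56, lay 69 bp from that start. By its start alone, Mtor ranked 4627 of 5578 called genes, the lowest of the group.

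Rptor, at chromosome 11 from 119602905 to 119899591, is the longest of the 9 at 296687 bp. Its start peak had a fold enrichment of 5.63, a −log10 q of 8.71 and a percentile of 86.5 in replicate 1, against 6.91, 13.0 and 79.0 in replicate 2. The summits lay 157 and 81 bp upstream of the start. Inside the gene, more than 1000 bp from either end, replicate 1 had 1 summit and replicate 2 had 5. Among 990 protein-coding genes of at least 200 kb, 26.5% had that many or more in replicate 1 and 11.1% in replicate 2. The median was 0 in both. Only the site about 273 kb into the gene was shared, with summits 68 bp apart and fold enrichments of 4.26 and 4.50. The strongest of the peaks found in replicate 2 alone lay 260305 bp from the start, with a fold enrichment of 6.40 and a −log10 q of 12.5. The other peaks of replicate 2 alone lay 186458, 200849 and 204785 bp from the start and 5508 bp past the 3′ end, with fold enrichments of 3.45 to 4.52. The gene table used gives no exons, so these sites were not placed in introns or exons. The promoter window of Rptor, chr11:119602655-119602954 on the plus strand, is shown because it was the least G+C-rich of the 9, held none of the 9 motifs searched, and still lay wholly under a peak in both replicates.
Rptor: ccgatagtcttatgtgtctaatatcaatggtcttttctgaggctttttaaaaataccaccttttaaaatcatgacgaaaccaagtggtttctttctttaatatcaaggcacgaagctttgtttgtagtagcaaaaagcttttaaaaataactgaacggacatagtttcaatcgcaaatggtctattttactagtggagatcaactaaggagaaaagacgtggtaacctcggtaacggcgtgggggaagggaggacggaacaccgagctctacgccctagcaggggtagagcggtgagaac

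**Figure D3:**
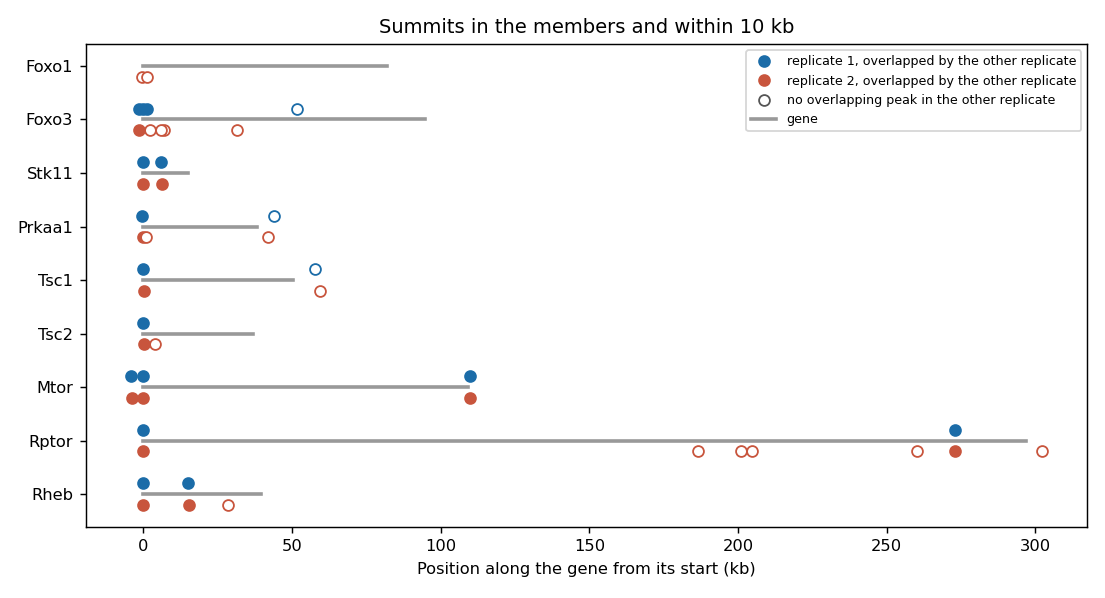
Summits along each gene and within 10 kb of it, in kb from the start. Blue points are replicate 1, red points replicate 2, filled where the other replicate had an overlapping peak, and grey lines are the genes. Filled points sit mainly at the starts, and 4 of the 5 replicate 2 summits deep inside Rptor are open.

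Foxo1 and Foxo3 were the members not called in both replicates. Foxo3, the family member most tied to stem cell maintenance in mouse marrow, spans chromosome 10 from 42181845 to 42276695 on the minus strand. In replicate 1 it had 3 peaks around its start. The peak over the start was weak, with a fold enrichment of 3.20, a −log10 q of 3.75 and its summit 237 bp upstream. The strong one lay upstream of it, with its summit 1463 bp from the start, a fold enrichment of 7.42, a −log10 q of 18.3 and a percentile of 97.5. A small one, with a fold enrichment of 3.94, lay 1297 bp inside, and replicate 1 had a further peak of its own at 51552 bp (3.64). In replicate 2 a single peak of 3652 bp, wider than 99.8% of that list, overlapped all 3 and had its summit 1401 bp upstream, 62 bp from the strong summit of replicate 1. Its fold enrichment was 7.93 and its −log10 q 22.5. The main summit of Foxo3 was thus shared by the replicates and lay about 1.4 kb upstream, outside the 1000 bp limit. Replicate 2 had 4 other peaks inside Foxo3 that replicate 1 lacked, at 2118, 6001, 7091 and 31435 bp from the start. The one at 6001 bp reached a fold enrichment of 6.91 (−log10 q 13.0) and fell within the lncRNA gene Gm38485. The window chr10:42276646-42276945, on the minus strand, lay under a peak in both replicates and is shown with its 5 SP matches in capitals.
Foxo3: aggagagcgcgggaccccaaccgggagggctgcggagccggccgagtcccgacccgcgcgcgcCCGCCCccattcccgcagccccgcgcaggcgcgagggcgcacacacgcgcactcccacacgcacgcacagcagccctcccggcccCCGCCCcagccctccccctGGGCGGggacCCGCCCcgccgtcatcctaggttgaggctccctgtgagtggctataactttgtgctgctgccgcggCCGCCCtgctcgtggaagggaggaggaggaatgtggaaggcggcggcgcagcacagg

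Foxo1, at chromosome 3 from 52268337 to 52350109, had no peak in replicate 1 in the gene or within 10 kb. Replicate 2 had a peak over its start, from 52267385 to 52268415, with a fold enrichment of 5.58, a −log10 q of 8.65, a percentile of 65.9 and its summit 328 bp upstream. A second, weaker replicate 2 peak lay 1238 bp inside, with a fold enrichment of 3.45. By fold enrichment in replicate 2, the start peak of Foxo1 lay above those of Prkaa1, Tsc2 and Mtor, which were shared with replicate 1. By −log10 q it lay below that of Mtor. Of the remaining FoxO genes, Foxo6 had a weak summit in replicate 2 only (fold enrichment 3.49, 808 bp from an end) and Foxo4 had none. None of the 4 FoxO genes was called, against 31.9% of all protein-coding genes, a difference that was not tested.

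What the starts share was examined in the RefSeq promoter windows of 300 bases, which all 9 genes matched. The windows of the 9 genes had a median G+C content of 61.3% (41.7 to 82.0%) and a median CpG ratio (observed over expected) of 1.02 (0.812 to 1.30). Over 17492 protein-coding genes with a window, the medians were 56.3% and 0.576. They were 62.0% and 0.827 in 5768 called genes and 52.7% and 0.344 in 11724 genes not called. With a window counted as CpG-rich at a G+C content of at least 55% and a CpG ratio of at least 0.6, limits chosen after the data were seen, 8 of the 9 genes were CpG-rich. Of these 8, 6 were called (all but Foxo1 and Foxo3), against 56.7% of all 7221 genes with such a window, a higher background than the 31.9% of all genes. The CpG ratio of each of the 9 exceeded the median of all genes. Foxo1 and Foxo3, the ones not called, lay within the range of the others.

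**Figure D4:**
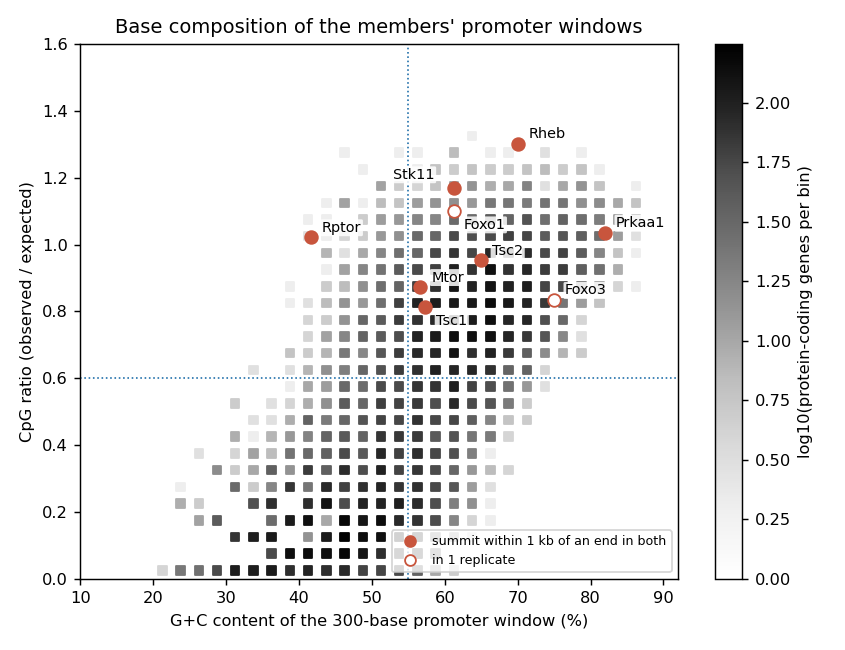
G+C content (x axis, %) against CpG ratio (y axis, observed over expected) of the 300-base promoter windows. Grey squares count protein-coding genes per bin on a log10 scale, red points are the 9 genes, open where only 1 replicate had a summit at an end, and dotted lines mark 55% and 0.6. Rptor, at 41.7%, is the only member left of the 55% line.

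The windows were searched on both strands for 9 motifs. YY1 is a zinc finger factor that binds near many starts, and its motif AAGATGGCG was found in 3 of the 9 genes, Stk11, Prkaa1 and Tsc1. It was found in 1.94% of the 17492 windows, in 4.25% of those of called genes and in 0.810% of those of genes not called. All 3 matches read in the direction of the transcript, beginning 21 to 32 bases past position 251, the first base of the annotated transcript. They are shown aligned because the element sat at nearly the same place in each, with the motif in capitals. The stretches cover chr10:80115805-80115839 (Stk11), chr15:5143881-5143910 (Prkaa1) and chr2:28641242-28641276 (Tsc1), all on the plus strand.
Stk11: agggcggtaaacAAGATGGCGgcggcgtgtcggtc
Prkaa1: agttcctggagaAAGATGGCGacggccgag
Tsc1: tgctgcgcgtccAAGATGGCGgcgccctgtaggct
Most summits at these starts lay far from the motif. The replicate 1 summits of Stk11 and Prkaa1 fell outside the windows, the replicate 2 summit of Stk11 at position 127, and the Tsc1 summits at positions 34 and 64. The replicate 2 summit of Prkaa1 fell at position 280, 3 bases before the motif. The transcript behind the Tsc1 window starts 240 bp inside the gene bound, from which the distances above were taken.

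Of the other motifs searched, GGGCGG, bound by SP factors, was the most frequent, in 6 of the 9 windows, against 46.3% of all windows and 68.9% of those of called genes. ATTGG, the CCAAT box, was in 3 (Foxo1, Stk11 and Mtor), against 39.0% of all and 40.8% of those of called genes. CCGGAAG, the core of ETS factors, was in Tsc2 and Mtor, against 11.9% of all and 23.2% of those of called genes. The E-box CACGTG was in Rheb alone, against 7.90% of all and 11.4% of those of called genes. A forkhead match, TGTTTAC, was in Stk11 alone, against 2.94% and 2.25%. TGACGTCA, the cyclic AMP response element, was found in none of the 9 windows, against 2.34% of all and 4.23% of those of called genes. The core promoter element TATAAA was in none, against 13.3% and 6.26%, and the NRF1 motif in none, against 1.32% and 2.79%. A match describes letters in the window and was not tested as a site.

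A wider list of 113 genes of the same network, fixed by role, all matched the gene table. Of the 104 that are not among the 9, 65 (62.5%) were called, against 31.9% of all protein-coding genes, and 16 of the 65 shared a summit with the end of another gene. A further 19 had a summit at an end in replicate 2 alone, 2 in replicate 1 alone, and 18 in neither. Among all genes with a CpG-rich promoter window the share called was 56.7%, nearer to 62.5%. How many of the 104 have such a window is not given here, which also holds for the counts by role below. The score of a called gene is the lower of its percentiles in the 2 lists. The median score was 59.2 for these 65 genes and 54.7 for all 6981 called genes.

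Around LKB1, 5 of 5 genes of the complex were called, against 31.9% of all protein-coding genes, and some on weak replicate 1 peaks. Strada encodes the pseudokinase partner of LKB1 and had fold enrichments of 4.32 and 9.84 in replicates 1 and 2, and Stradb, which shared its summit with Trak2, had 4.00 and 5.46, with a −log10 q of 3.64 in replicate 1. Cab39 and Cab39l, which encode the scaffold proteins of the complex and were named after their values were seen, had 3.91 and 7.44 (Cab39) and 2.42 and 6.99 (Cab39l). In replicate 1 the −log10 q was 4.63 for Cab39 and 1.41 for Cab39l, which shared its summit with Setdb2 and ranked 6915 of 6981 called genes. Of the 7 AMPK subunit genes 4 were called, including Prkab1 (6.55 and 6.12) and Prkab2 (4.04 and 6.77), which encode the beta subunits. Prkaa2, the other catalytic subunit gene, Prkag2 and Prkag3 had no summit at an end in either replicate. The last 2 were named after their values were seen. Of 12 other kinases activated by LKB1, 7 were called, led by the salt-inducible kinases Sik1 (9.04 and 10.6) and Sik2 (6.12 and 10.4).

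Around mTORC1, 4 of 5 subunit genes were called, to be read, like the counts that follow, against 31.9% of all protein-coding genes. Mlst8, which encodes a subunit of both mTOR complexes, had fold enrichments of 9.15 and 11.4, and its score of 97.5 ranked 93 of 6981 called genes, above each of the 9. Akt1s1, which encodes the inhibitory subunit PRAS40, had 4.96 and 14.9 and shared its summit with Tbc1d17. Of 4 genes for subunits found in mTORC2 alone, Rictor was called (3.94 and 5.85). Tbc1d7, a smaller TSC subunit gene, had a summit in replicate 2 only (7.71) and was named after its values were seen. Rhebl1, the paralog of Rheb, was called, with 2.81 in replicate 1 (percentile 5.95) and 9.30 in replicate 2, and shared its summit with Dhh. Of 9 Rag GTPase and Ragulator genes, whose products bring mTORC1 to the lysosome, 6 were called, including Lamtor1 with its neighbour Tomt (7.51 and 11.7) and Lamtor2 with Ubqln4 (4.91 and 9.30). Of 11 GATOR and KICSTOR genes, which relay amino acid shortage, 8 were called, including Nprl2 with Cyb561d2 (4.40 and 9.30). Of 8 folliculin and sestrin genes 5 were called, including Fnip1 (6.06 and 10.6) and Flcn (5.77 and 7.74).

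Upstream, 8 of 11 PI3K and Akt genes were called, where 31.9% is again the share of all protein-coding genes for each count here. They included Akt2 (5.72 and 8.03) and Pik3ca (4.88 and 8.77), the catalytic subunit p110 alpha. Downstream, 6 of 10 targets of mTORC1 and AMPK were called. The lysosomal transcription factor gene Tfeb had fold enrichments of 6.53 and 10.4, and the S6 kinase gene Rps6kb1, with its neighbour Tubd1, had 6.64 and 9.83. Of 16 FoxO target genes 11 were called. Klf2, a quiescence factor gene of lymphocytes, had 8.01 and 10.6, and Cdkn2d, the cyclin-dependent kinase inhibitor gene for p19, had 6.85 and 13.6 and shared a summit with Kri1. For both genes the strongest summits of the replicates were nearest to opposite ends. Of 6 other regulators acting under stress 3 were called, including the phosphatase gene Ppp2ca (5.85 and 9.57) and Camkk2, an upstream kinase gene of AMPK (5.70 and 8.24). Gene numbers per role are small, and no role was tested against another.

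**Figure D5:**
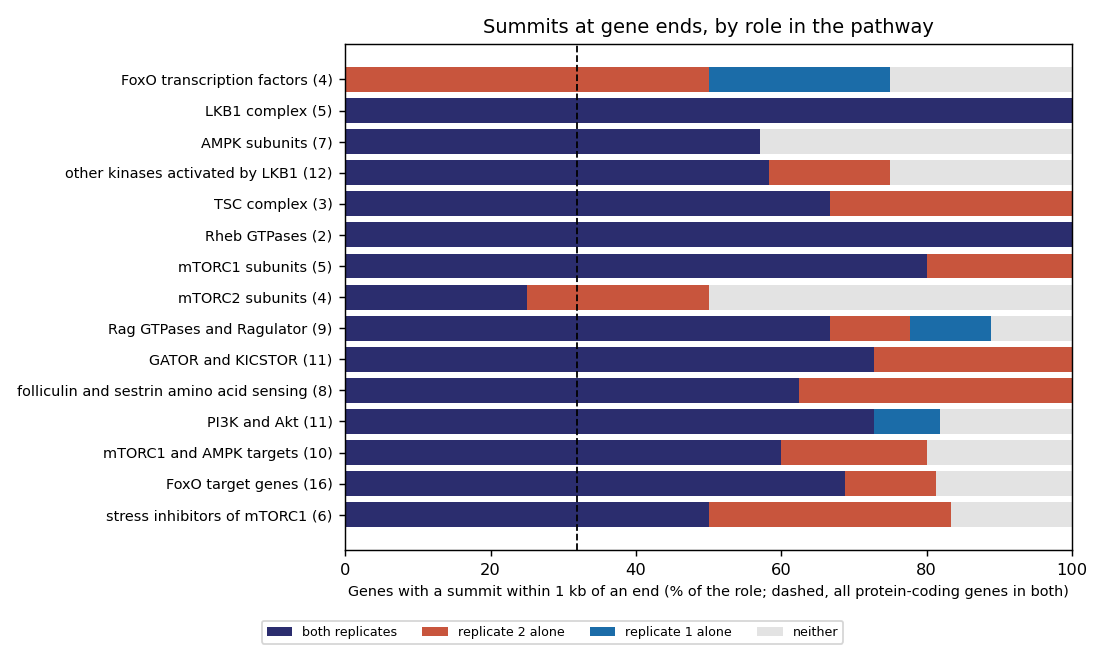
Share of genes in each role (x axis, %, number of genes in brackets) with a summit within 1 kb of an end in both replicates (dark), in replicate 2 alone (red), in replicate 1 alone (blue) or in neither (grey). The dashed line is the 31.9% of all protein-coding genes called in both. The FoxO and mTORC2 rows are the ones whose dark bar ends short of it.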

How the data were processed

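Flag ChIP and input libraries were made from 10 ng of DNA of cells fixed in 1% formaldehyde for 10 min, with a transposase-based kit, 16 amplification cycles and selection at 100 to 500 bp, per the labels' protocols. The submitters' processing notes name build mm10, the aligner Bowtie2, the peak caller MACS2, the annotator ChIPseeker, and cutadapt, Trimmomatic and FastQC. Neither the peak cutoff nor the control sample is given in the sources used here.

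For each ChIP library, the authors deposited 1 peak list with a linear fold enrichment (ratio) and −log10 p and −log10 q values from the peak caller. The deposited score was not used. Peak names show separate calling. Depth is unknown.

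Summits (1-based) were assigned to genes of the RefSeq table for GRCm38.p6, with strand from the promoter table, in Python 3.11.15. Overlap meant 1 bp or more. The assignment was tested on simulated summits. No list was tested. The members and lists were chosen with earlier results of these data known. Named genes were the 9 members, up to 2 others per role with the highest score, the paralogs Foxo4, Foxo6, Prkaa2 and Rhebl1, and neighbours within 1000 bp of a summit. Some genes under this rule are not reported here. Alternatives changed the window, cutoff, overlap rule, gene end and replicates.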

Additional observations from a re-analysis of the deposited data

How the results depend on the processing

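The 7 called members stayed between 5 and 8 under every alternative but 1. With a fold enrichment of at least 5 in both lists only 3 were left (Stk11, Rptor and Rheb), beside 25 of the 113 network genes and 2084 of all protein-coding genes. Stk11, Rptor and Rheb were called under all 11 alternatives. With −log10 q of at least 5, 6 members and 4619 of all genes were called. Prkaa1 was lost there, and Mtor was kept through the peak at the start of Exosc10. Starts alone at that cutoff, like the covering of an end, were added after seeing the data. They gave 5 called members, 45 of the 93 network genes with a strand and 3713 of the 17492 protein-coding genes with a strand. Tsc2 was lost when summits near more than 1 gene were dropped, which left 6 members and 21.7% of all genes called. A 3000 bp window called Foxo3, giving 8 members beside 36.8% of all genes. A 500 bp window and overlapping peaks at the same end each kept 7 members, beside 27.9% and 31.6% of all genes. Leaving out a replicate gave 8 members each time, 75 to 92 network genes and 7128 to 9954 of all genes. Of the 47 peaks at the members, 28 overlapped a peak of the other replicate, 12 did so over 50% of both peaks, and 22 had a summit within 200 bp. With −log10 q of at least 5, 18 of the 28 peaks left overlapped one. These overlaps were not counted over all peaks of the lists. The cause of these changes was not tested. No paired analysis was possible because every value analysed here comes from the Flag ChIP libraries, which form 1 group. Fold enrichments rest on unknown depths, and no error was computed for a single gene from 2 lists.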
